A study of Macaca mulatta with 12 samples.

Results

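S100A4, S100A6, ANXA1 and LGALS1 were followed on 12 rhesus macaque expression arrays. All probe sets whose platform annotation gives 1 of these symbols were taken, which were 9 of 52766 probe sets and stood for 4 of 12993 named genes. S100A4 had 1 probe set, S100A6 had 3, ANXA1 had 3 and LGALS1 had 2. The genes were selected on measured values of these same arrays. Their differences between fibroblasts and embryonic stem (ES) cells are therefore a description with no test, and so is the lower level of LGALS1 in ORMES-9 than in ORMES-22, which earlier results had shown.

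Each of 4 cell populations gave 3 arrays, labelled biological replicates A, B and C. Skin fibroblasts, the somatic control, were male cells from back skin of an adult monkey of 9 years, grown without feeder cells, and the labels do not say whether the replicates shared an animal. The other populations were female ES cell lines on mitotically inactive mouse embryonic fibroblast feeders, and RNA was taken from colonies chosen as undifferentiated. ORMES-9 (passages 13, 14 and 16 for replicates A, B and C) is described as a homozygous parthenogenetic line, although its source label names a fertilised embryo. rPESC-2 (passages 16, 10 and 16) is a heterozygous parthenogenetic line, derived from an egg activated without sperm. ORMES-22 (passages 18, 21 and 19) came from an embryo fertilised in vitro and is the biparental line. Each kind of ES cell is 1 line, so p-values measure the spread between samples of a population, and the kind of embryo cannot be told apart from the line. That spread is pooled over the 3 lines and the fibroblasts. Cell type, sex, medium and feeder cells cannot be told apart between fibroblasts and ES cells.

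S100 proteins are small proteins that bind calcium through EF-hand motifs and then bind other proteins. S100A4, also called fibroblast-specific protein or metastasin, binds non-muscle myosin and is used as a marker of fibroblasts and of migrating cells. S100A6, or calcyclin, binds the adaptor protein CACYBP and annexins. ANXA1 binds membrane phospholipids in the presence of calcium, and outside the cell it acts on formyl peptide receptors and limits inflammation. LGALS1, or galectin-1, is a secreted lectin that binds beta-galactosides on surface glycoproteins and matrix.

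The labelled cell types were checked against markers. The mean log2 level of 18 measured fibroblast markers was 10.88 to 10.95 on the fibroblast arrays, 7.48 to 7.68 in ORMES-9, 7.25 to 7.66 in rPESC-2 and 7.94 to 8.22 in ORMES-22. POU5F1, a defining pluripotency factor, averaged 4.90 in fibroblasts, against 12.91 in ORMES-9, 12.87 in rPESC-2 and 13.12 in ORMES-22. Of 12 measured pluripotency markers, 8 were called lower in fibroblasts and 1, NANOG, higher, at a mean of 9.53 in fibroblasts and 7.95 to 8.41 in the ES lines. Of all 12993 genes, 15.0% were called lower in fibroblasts and 13.2% higher. The mean of 8 leukocyte markers lay between 4.51 and 4.71 over the 12 arrays, and PTPRC, which marks all leukocytes, averaged 3.89 in fibroblasts and 4.01 to 4.09 in the ES lines. Values of bacterial control probe sets had a 90th percentile of 4.26, which is used here as the level of background. ORMES-22 replicate A stood apart: correlations over all probe sets went down to 0.984 within ORMES-22 and to 0.994 at the lowest within the other groups. This array correlated less with ORMES-22 replicates B and C (0.986 and 0.984) than with the rPESC-2 arrays (0.988 to 0.990).

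All 4 genes were higher on every fibroblast array than on any ES cell array. Through the probe set with the highest mean of each gene, the fibroblast mean exceeded the mean of the 3 ES lines 144-fold for S100A4, 20.4-fold for ANXA1, 17.7-fold for LGALS1 and 9.42-fold for S100A6. Among 12993 genes ordered by this difference, S100A4 stood at place 16, ANXA1 at 140, LGALS1 at 157 and S100A6 at 289. The arrays hold RNA of whole cultures, so fewer cells that express a gene and less RNA per cell cannot be told apart.

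S100A4 was read by a single probe set (MmugDNA.17365.1.S1_at). Its log2 level was 13.24, 13.23 and 13.02 in fibroblast replicates A, B and C, against 5.09, 5.40 and 5.80 in ORMES-9, 6.88, 5.50 and 5.35 in rPESC-2 and 6.39, 7.32 and 6.18 in ORMES-22. The lowest fibroblast array exceeded the highest ES array, ORMES-22 replicate B, by 5.70 on the log2 scale, and every ES array lay above background. The fibroblast mean was 213-fold above ORMES-9, 152-fold above rPESC-2 and 92.7-fold above ORMES-22.

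LGALS1 had nearly equal values on the fibroblast arrays. Its brighter probe set (MmugDNA.22096.1.S1_at) read 14.14, 14.16 and 14.14 in fibroblasts, against 9.29, 8.99 and 9.35 in ORMES-9, 10.40, 10.12 and 9.34 in rPESC-2 and 11.68, 10.86 and 9.99 in ORMES-22. The groups of fibroblasts and ES cells were 2.46 apart at their nearest arrays. Fibroblasts were 30.7-fold above ORMES-9, 18.3-fold above rPESC-2 and 9.91-fold above ORMES-22. The other LGALS1 probe set (MmugDNA.26175.1.S1_s_at) differed from this one by at most 0.19 on any array.

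ANXA1 spread widely among ES cells. Its brightest probe set (MmugDNA.10526.1.S1_at) read 12.69, 13.02 and 12.88 in fibroblasts, against 6.20, 7.42 and 8.98 in ORMES-9, 9.56, 8.25 and 6.79 in rPESC-2 and 8.41, 9.93 and 11.06 in ORMES-22. Low and high arrays occurred in each ES line, and the highest, ORMES-22 replicate C, was 1.63 under the lowest fibroblast array. Fibroblasts were 40.2-fold above ORMES-9, 25.4-fold above rPESC-2 and 8.37-fold above ORMES-22. A second ANXA1 probe set followed the first with a Pearson correlation of 0.97 over 12 arrays and 0.96 over the 9 ES arrays, and gave 37.3-fold between fibroblasts and ES lines. The third (MmugDNA.16798.1.S1_at) read 3.76 to 4.44 over all 12 arrays, around background, and differed by 0.04 between fibroblasts and ES lines.

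S100A6 gave different pictures through its probe sets. The brightest (MmugDNA.17370.1.S1_at) read 12.94, 12.87 and 12.92 in fibroblasts, against 7.80, 8.30 and 9.59 in ORMES-9, 11.78, 8.04 and 8.38 in rPESC-2 and 10.59, 11.42 and 11.18 in ORMES-22. Replicate A of rPESC-2 lay near the ORMES-22 arrays, and the other rPESC-2 replicates lay among the ORMES-9 arrays. Fibroblasts were 20.3-fold above ORMES-9, 11.4-fold above rPESC-2 and 3.60-fold above ORMES-22.

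A second S100A6 probe set (MmugDNA.17370.1.S1_s_at), whose suffix marks probes that may match several transcripts, read 13.07, 13.44 and 13.31 in fibroblasts. It read 6.0, 6.39 and 6.48 in ORMES-9, 8.21, 7.63 and 6.34 in rPESC-2 and 6.49, 6.46 and 6.81 in ORMES-22, so that ORMES-22 was not the highest ES line here. Its fibroblast mean was 91.5-fold above the ES lines, where the first probe set gave 9.42-fold. The pair correlated with 0.77 over 12 arrays and 0.38 over the 9 ES arrays. The third S100A6 probe set (MmugDNA.43216.1.S1_at) read 8.41, 7.89 and 7.98 in fibroblasts and 4.16 to 4.40, near background, on the ES arrays. The size of the S100A6 difference and the order of the ES lines therefore depended on the probe set.

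**Figure D1:**
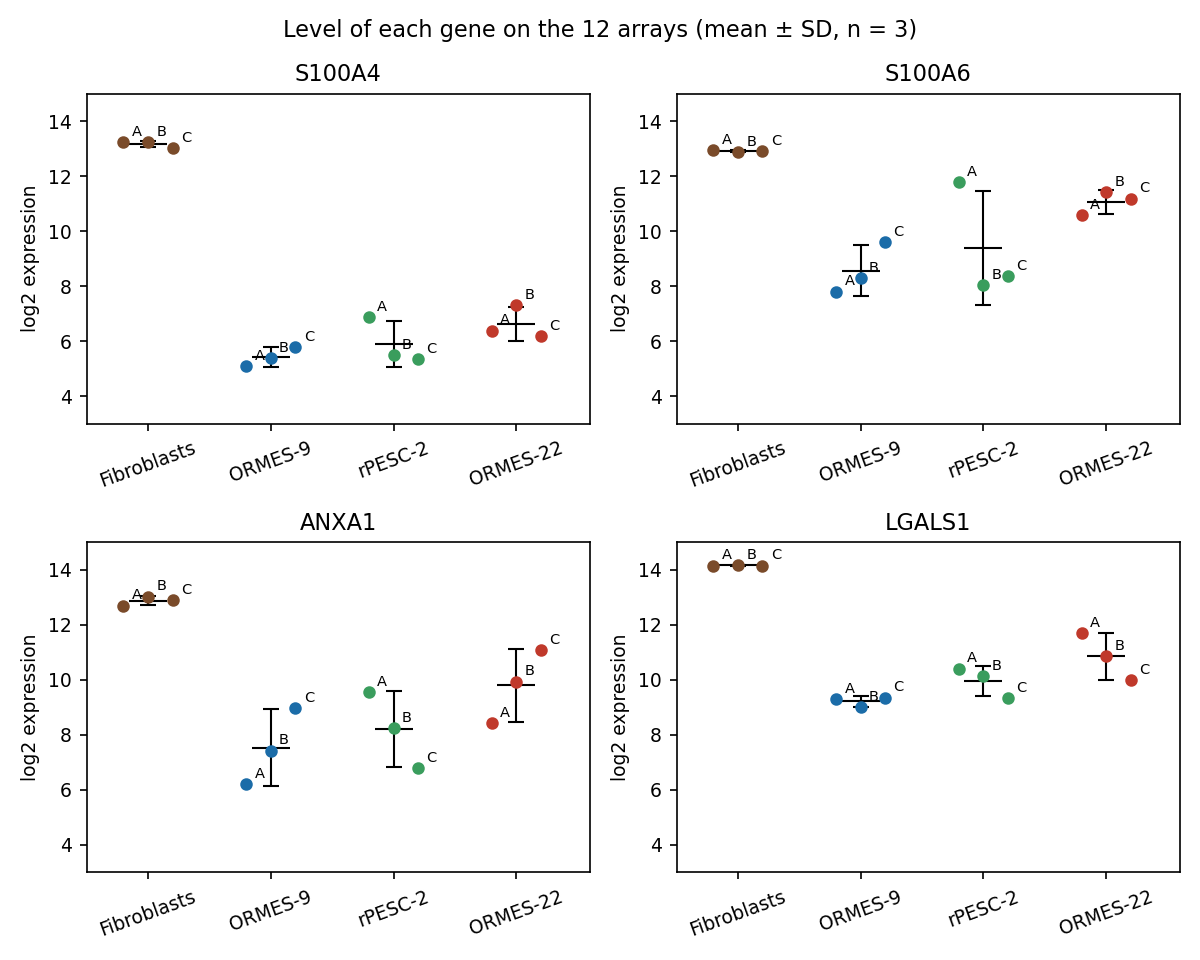
Log2 level of the brightest probe set of each gene on each of the 12 arrays, by group. Every fibroblast array lies above every ES array, by 5.70 for S100A4, 2.46 for LGALS1, 1.63 for ANXA1 and 1.09 for S100A6 at the nearest arrays.

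**Figure D2:**
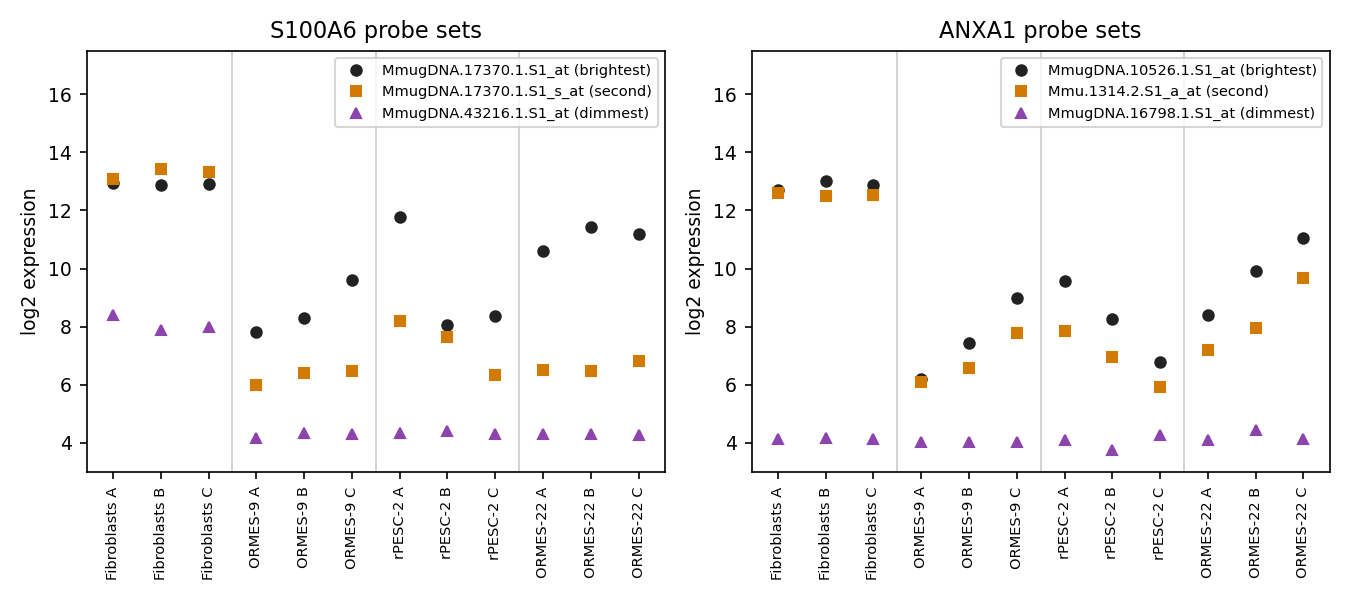
Log2 level of the 3 S100A6 and the 3 ANXA1 probe sets on each array, by group. The S100A6 probe sets part in ORMES-22, and 1 ANXA1 probe set stays between 3.76 and 4.44.

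Among the ES lines, the mean of the brightest probe set ran from ORMES-22 as the highest through rPESC-2 to ORMES-9 as the lowest for all 4 genes, under fibroblasts. Of 12993 genes, 5.35% had their group means in this order, but the 4 genes were chosen with part of it known, and nothing is read from this share. The means were 5.43 ± 0.36 in ORMES-9, 5.91 ± 0.84 in rPESC-2 and 6.63 ± 0.61 in ORMES-22 for S100A4 (SD, n = 3 each). They were 8.56 ± 0.92, 9.40 ± 2.07 and 11.06 ± 0.43 in the same lines for S100A6, 7.53 ± 1.40, 8.20 ± 1.39 and 9.80 ± 1.33 for ANXA1, and 9.21 ± 0.20, 9.95 ± 0.55 and 10.84 ± 0.85 for LGALS1. Neighbours in this order overlapped in their arrays for each gene: ORMES-9 with rPESC-2, and rPESC-2 with ORMES-22. Every ORMES-9 array lay under every ORMES-22 array for S100A4, S100A6 and LGALS1, 3 of the 4 genes, of which LGALS1 was known to be lower, and so it did for 11.9% of all genes.

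The lines were compared with limma's moderated test, two-sided, with Benjamini-Hochberg adjustment over all probe sets. The fit pooled the spread of all 4 populations, and the brightest probe sets of the 4 genes varied less in fibroblasts than within ES lines. With only the 9 ES arrays, the SE in rPESC-2 against ORMES-22 rose from 0.78 to 0.89 for S100A6 and from 0.81 to 0.92 for ANXA1. Calls required at least a 2-fold difference together with an adjusted p below 0.05. This asks whether a parthenogenetic line differed from the biparental line, and the parthenogenetic lines from each other. For rPESC-2 against ORMES-22, 0 of the 9 probe sets were called by limma, 4 had an unadjusted p under 0.05, and 1.24% of all probe sets were called. For ORMES-9 against ORMES-22, 1.57% of all probe sets were called, and 6 of the 9 had an unadjusted p under 0.05. The 2 of the 9 called were those of LGALS1, known beforehand, so nothing is read from their count, and 0 of the other 7 were called by limma. For ORMES-9 against rPESC-2, 0 of 9 were called by limma, 1 had an unadjusted p under 0.05, and 1.23% of all were called. Through 1 probe set a gene, 3398 of 12993 genes had an unadjusted limma p under 0.05 in rPESC-2 against ORMES-22. The number was 3179 in ORMES-9 against ORMES-22 and 2830 in ORMES-9 against rPESC-2, so such p-values were common. These count genes, whereas the 9 probe sets include several of 1 gene, and the 6 in ORMES-9 against ORMES-22 include the 2 of LGALS1.

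LGALS1 in ORMES-9 was 3.10-fold lower than in ORMES-22, a log2 difference of -1.63 (SE 0.35), and its other probe set gave -1.67. This call is the one known beforehand and is given as a description. It was lost without ORMES-9 replicate A, ORMES-9 replicate B or ORMES-22 replicate B, where the difference was -1.67, -1.52 and -1.62, and with only the 9 ES arrays. In rPESC-2 against ORMES-22 LGALS1 differed by -0.89 (SE 0.35, limma adjusted p = 0.18, 95% interval -1.66 to -0.12). It passed in that comparison once ORMES-22 replicate C was left out, with -1.32 and a limma adjusted p of 0.031.

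S100A6, through its brightest probe set, differed by -2.50 in ORMES-9 against ORMES-22 (SE 0.78, limma adjusted p = 0.093, interval -4.20 to -0.79). In rPESC-2 against ORMES-22 it differed by -1.66 (SE 0.78, limma adjusted p = 0.25, interval -3.37 to 0.04). Both p-values changed with rPESC-2 replicate A, the array farthest from its line's mean: without it the differences were -2.50 with a limma adjusted p of 0.0026 and -2.85 with 0.0043. The second probe set had values of -0.30 (limma adjusted p = 0.73) and 0.81 (limma adjusted p = 0.22) in these comparisons, so that in rPESC-2 against ORMES-22 its direction was opposite to that of the first probe set.

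S100A4 differed by -1.20 in ORMES-9 against ORMES-22 (SE 0.38, limma adjusted p = 0.096, interval -2.02 to -0.37), and without rPESC-2 replicate A the limma adjusted p was 0.024. In rPESC-2 against ORMES-22 it differed by -0.71 (SE 0.38, limma adjusted p = 0.31, interval -1.54 to 0.11). ANXA1 differed by -2.27 in ORMES-9 against ORMES-22 (SE 0.81, limma adjusted p = 0.14, interval -4.03 to -0.50), and by -2.96 without ORMES-22 replicate A, with a limma adjusted p of 0.031. In rPESC-2 against ORMES-22 it differed by -1.60 (SE 0.81, limma adjusted p = 0.28, interval -3.36 to 0.16).

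Between the parthenogenetic lines, the brightest probe sets all had lower means in ORMES-9, and none was called. ORMES-9 minus rPESC-2 was -0.49 for S100A4 (limma adjusted p = 0.64, interval -1.31 to 0.34), -0.83 for S100A6 (0.71 by the same test, interval -2.54 to 0.87) and -0.67 for ANXA1 (0.80, interval -2.43 to 1.10). For LGALS1 it was -0.74 (limma adjusted p = 0.34, interval -1.51 to 0.03). The sign for S100A6 turned without rPESC-2 replicate A, to 0.35, and that for ANXA1 turned without the same array, to 0.013. The second S100A6 probe set gave -1.10 (limma adjusted p = 0.11), and -1.63 with a limma adjusted p of 0.0011 without rPESC-2 replicate C.

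Through their brightest probe sets, the 4 genes varied between replicates of an ES line more than nearly all other genes. On the fibroblast arrays these probe sets had an SD of 0.16 for ANXA1, 0.04 for S100A6, 0.13 for S100A4 and 0.01 for LGALS1. The SD within ES lines, pooled over the 3 lines, was 1.37 for ANXA1, 1.33 for S100A6, 0.63 for S100A4 and 0.59 for LGALS1. Over the 11373 genes whose mean over the ES arrays reached background, the median was 0.153 and the 90th percentile 0.317. A smaller SD was found for 99.9% of these genes in the case of ANXA1 and of S100A6, for 99.0% in that of S100A4 and for 98.7% in that of LGALS1. The second S100A6 probe set had an SD of 0.19 in fibroblasts and 0.58 within ES lines, and the third 0.28 in fibroblasts and, near background, 0.06 within ES lines. The second ANXA1 probe set had 1.05 and the second LGALS1 probe set 0.64 within ES lines. Among genes that passed the same filter, the median SD within ES lines was 0.159 for 10 other S100 genes, 0.153 for 7 other annexins and 0.166 for 6 other galectins. For the 14 fibroblast markers that passed it, the median was higher, at 0.310. The largest of these was LOX with 0.769, more than S100A4 or LGALS1, so a wide spread was not particular to the 4 genes.

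**Figure D3:**
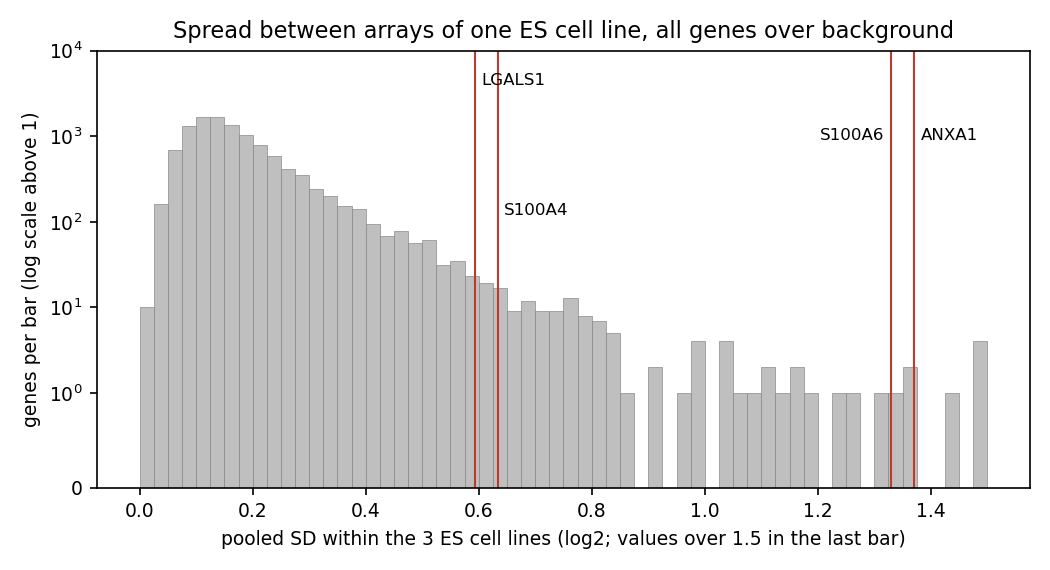
Histogram of the pooled SD within ES lines (log2) over 11373 genes above background on average over the ES arrays, with the 4 genes marked. All 4 lie beyond the 90th percentile of 0.317, with ANXA1 at 1.37 and S100A6 at 1.33.

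Through the brightest probe sets, the replicates that were high differed from line to line. In rPESC-2, replicate A was the highest for all 4 genes, above the line mean by 2.38 for S100A6, 1.36 for ANXA1, 0.97 for S100A4 and 0.44 for LGALS1. In ORMES-9, replicate C was the highest for all 4 genes, by 1.45 for ANXA1, 1.02 for S100A6, 0.37 for S100A4 and 0.14 for LGALS1. In ORMES-22 the genes did not share a highest array: replicate C was 1.26 above the mean for ANXA1 and -0.85 from it for LGALS1, replicate A was 0.84 above for LGALS1 and -1.39 from it for ANXA1, and replicate B was the highest for S100A4 and S100A6. The second S100A6 probe set was instead highest in ORMES-22 replicate C, at 6.81, and read 6.46 in replicate B.

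Fibroblast markers moved with some of these arrays. Their mean log2 level in replicates A, B and C was 7.48, 7.50 and 7.68 in ORMES-9, 7.66, 7.58 and 7.25 in rPESC-2 and 7.94, 8.22 and 8.03 in ORMES-22, so that the highest array was replicate C in ORMES-9, replicate A in rPESC-2 and replicate B in ORMES-22. The summed linear signal of the 18 markers was 85244 to 89585 in fibroblasts, 16103 to 19796 in ORMES-9, 14326 to 19568 in rPESC-2 and 20700 to 30442 in ORMES-22. Of the 18 markers, 0 lay under background on the fibroblast arrays, 2 to 4 in ORMES-9, 4 in rPESC-2 and 3 to 4 in ORMES-22. Of the 18 markers, 14 were called higher in fibroblasts than in the ES lines, 3 were not called, and 1, COL5A2, was called lower, with a difference of -1.13. That call came through the brightest of 4 COL5A2 probe sets, and the others were not read here. Among all 12993 genes, 13.2% were called higher and 15.0% lower. The markers not called were DCN with -0.43, THY1 with -0.31 and TWIST2 with 0.74, through their brightest probe sets. Several markers were high in ES lines too: COL1A1, VIM and FN1 had means of 10.40 to 13.40 there. LUM, PRRX1 and FAP, a matrix proteoglycan, a mesenchymal homeobox factor and a surface protease, named after their values were seen, averaged 11.49, 10.71 and 9.96 in fibroblasts and had means of 3.59 to 4.23 in the ES lines, under background. TWIST1, a mesenchymal transcription factor, was called lower in ORMES-9 (-2.67) and in rPESC-2 (-1.80) than in ORMES-22, and LOX (-2.32) and COL6A3 (-1.84) were called lower in rPESC-2 than in ORMES-22. The LOX call rests on 1 of 3 probe sets, of which the others both gave -0.40, and was lost without replicate B of rPESC-2 or replicate B of ORMES-22. With single arrays left out, 2 to 5 of the 18 markers were called lower in rPESC-2 and 1 to 3 in ORMES-9 than in ORMES-22. The highest counts came without ORMES-22 replicate A, which also raised the calls over all probe sets to 1493 in place of 656 and to 1284 in place of 831. The part of such cells, of mouse feeder RNA or of the state of the colonies in the levels of the 4 genes was not tested.

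**Figure D4:**
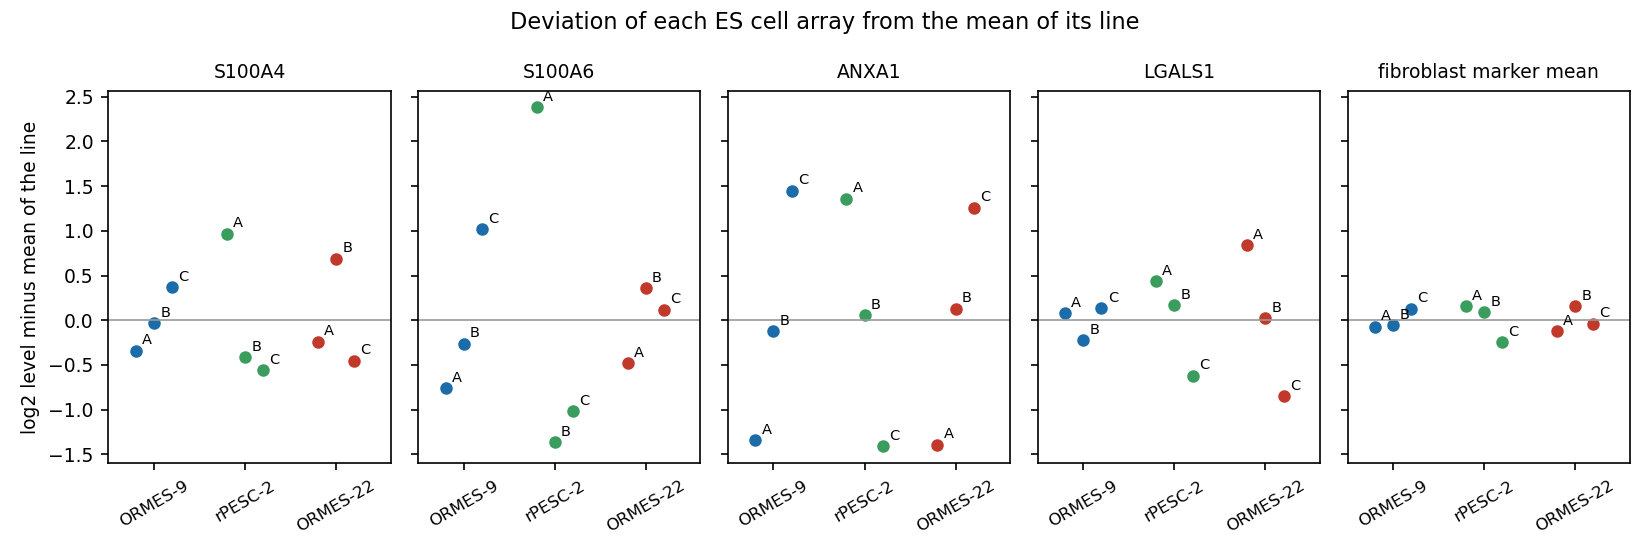
Deviation of each ES array from its line's mean (log2) for the brightest probe sets of the 4 genes, beside that of the mean of the 18 fibroblast markers. Replicate A of rPESC-2 and replicate C of ORMES-9 lie above the line mean for all 4 genes, and ORMES-22 shows no shared order.

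Over the 9 ES arrays, S100A4 and S100A6 correlated with 0.93 (Pearson), ANXA1 and S100A6 with 0.85, ANXA1 and S100A4 with 0.75, LGALS1 and S100A4 with 0.73, LGALS1 and S100A6 with 0.65 and ANXA1 and LGALS1 with 0.46. Over all 12 arrays the same pairs had 0.84 to 0.96. These values describe arrays that fall into 4 groups, and the arrays of a group share a line. They were taken through the brightest probe set of each gene. For S100A6 that probe set correlated over the 9 ES arrays with 0.38 with the second and 0.03 with the third, which was near background there. The S100A6 values therefore hold for its brightest probe set only.

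S100A4 and S100A6 are neighbours in the genome. In the reference annotation of T2T-MMU8v2.0, used here for gene order only, both are on chromosome 1 with S100A5 between them, S100A3 and then S100A2 follow on the far side of S100A4, and LGALS1 is on chromosome 10 and ANXA1 on chromosome 15. S100A5, a calcium-binding protein of the same family, averaged 5.01 ± 0.12 in fibroblasts, 5.16 ± 0.09 in ORMES-9, 5.20 ± 0.10 in rPESC-2 and 5.34 ± 0.09 in ORMES-22 (SD, n = 3 each). It differed by -0.22 between fibroblasts and ES lines and was not called, although the gene on either side of it differed by 7.17 and 3.24. S100A3 was not measured.

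The relatives of the 4 genes did not share their direction. In fibroblasts, 13.2% of 12993 genes were called higher and 15.0% lower than in the ES lines, and the median difference was -0.15. Of 13 other S100 genes measured, 3 were called higher, 1 lower and 9 neither, with a median of -0.08. Of 8 other annexins, 3 were called higher, 3 lower and 2 neither, with a median of -0.09. Of 8 other galectins, 2 were called higher, 1 lower and 5 neither, with a median of -0.23. Several of these relatives lay under or near background in all 4 groups, among them S100A12 (means 3.76 to 3.90), ANXA13 (4.20 to 4.29) and LGALS2 (3.93 to 4.28). The medians therefore do not describe expressed relatives alone.

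Among the S100 genes, S100A14 averaged 10.37 ± 0.09 in fibroblasts, against 7.53 ± 0.13 in ORMES-9, 7.83 ± 0.41 in rPESC-2 and 8.0 ± 0.30 in ORMES-22 (SD, n = 3 each), a rise of 2.59 (SE 0.15, limma adjusted p = 2e-08). Its other probe set gave -0.25, so this call rests on 1 probe set. S100A11, which binds annexin A1, was higher by 2.03 (SE 0.23, limma adjusted p = 1.02e-05) and S100A2 by 1.32 (SE 0.10, limma adjusted p = 2.18e-07). S100A1, known from heart and skeletal muscle, fell by 1.62 (SE 0.24, limma adjusted p = 9.82e-05). S100A10, the partner of annexin A2, averaged 12.39 ± 0.05 in fibroblasts and 11.92 to 12.81 in the ES lines, a difference of -0.03 (limma adjusted p = 0.84). S100A16 and S100A8 had differences of 0.67 and -0.28 and were not called, although 2 of the 5 other S100A16 probe sets were called higher, by 1.13 and 1.01.

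Among the annexins, ANXA4 was higher in fibroblasts by 2.54 (SE 0.09, limma adjusted p = 1.28e-10), although its other probe set gave 0.00. ANXA6 was higher by 2.34 (SE 0.08, limma adjusted p = 9.09e-11) and ANXA2 by 1.32. ANXA10 averaged 4.27 ± 0.07 in fibroblasts, near background, against 7.18 ± 0.06 in ORMES-9, 9.90 ± 0.21 in rPESC-2 and 8.69 ± 0.59 in ORMES-22 (SD, n = 3 each), and so ran opposite to ANXA1, with a difference of -4.32 (SE 0.18, limma adjusted p = 6.72e-10). ANXA9 fell by 1.10 and ANXA3 by 1.01. Among the galectins, LGALS3, which also binds beta-galactosides, was 13.8-fold higher in fibroblasts, a difference of 3.79 (SE 0.13, limma adjusted p = 1.3e-10), LGALS8 was higher by 1.39, though its 7 probe sets gave -0.15 to 3.07, and LGALSL, a galectin-like gene, fell by 2.16 (limma adjusted p = 3.38e-08). LGALS7B, LGALS12 and LGALS2 had values of -0.68, -0.35 and -0.26 and were not called.

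Between ES lines few relatives were called through their brightest probe sets. By the same rule applied to 1 probe set a gene, the share of 12993 genes called was 1.7% between rPESC-2 and ORMES-22, 2.29% between ORMES-9 and ORMES-22 and 1.65% between ORMES-9 and rPESC-2. ANXA10 was called in all 3, higher in rPESC-2 than in ORMES-22 by 1.21 (SE 0.22, limma adjusted p = 0.0087), lower in ORMES-9 than in ORMES-22 with a difference of -1.51 (limma adjusted p = 0.0014) and lower in ORMES-9 than in rPESC-2 with a difference of -2.72, or 6.57-fold (limma adjusted p = 1.97e-05). The call against ORMES-22 in rPESC-2 was lost with only the 6 arrays of those lines (limma adjusted p = 0.133). ANXA6 was called lower in rPESC-2 than in ORMES-22, with a difference of -1.33 (SE 0.10, limma adjusted p = 1.06e-05). S100A11 was called higher in ORMES-9 than in rPESC-2 by 1.19 (SE 0.29, limma adjusted p = 0.034), a call lost without any single array of these 2 lines or of the fibroblasts, with limma adjusted p-values of 0.052 to 0.12. With only the 9 ES arrays the S100A11 call was also lost (limma adjusted p = 0.099). Without ORMES-22 replicate A, S100A10 and S100A11 were called lower in rPESC-2 than in ORMES-22, where 0 S100 genes were called by limma with all arrays and 3 of 13 had an unadjusted p under 0.05. No galectin of the 8 was called by limma in any of the 3 comparisons, and 3, 2 and 3 of them had an unadjusted p under 0.05. Of all 12993 genes, 3398, 3179 and 2830 had such an unadjusted limma p in the same order of comparisons. With single arrays left out, LGALS3 was called higher in ORMES-9 than in rPESC-2 without rPESC-2 replicate A, and ANXA4 without ORMES-9 replicate C or rPESC-2 replicate B. The other ANXA4 probe set was called higher in ORMES-9 than in ORMES-22 (1.83) and than in rPESC-2 (1.12) with all arrays, and the other ANXA9 probe set was called higher in ORMES-9 than in ORMES-22 (1.12).

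Of 17 measured partners and receptors of the 4 proteins, 8 were called higher in fibroblasts, 1 lower and 8 neither, with a median of 0.74. Over all 12993 genes, 13.2% were called higher and 15.0% lower, with a median of -0.15. EGFR, whose signalling phosphorylates annexin A1, was higher by 3.40 (limma adjusted p = 1.31e-11), and LGALS3BP, a secreted galectin-binding glycoprotein, by 2.94. NRP1, a receptor for galectin-1, was higher by 3.05 through 1 of 3 probe sets, and the others gave 0.01 and 0.93 and were not called. ITGB1, the integrin beta-1 chain that galectin-1 binds, averaged 13.06 ± 0.04 in fibroblasts, 10.39 ± 0.44 in ORMES-9, 9.56 ± 0.36 in rPESC-2 and 10.86 ± 0.63 in ORMES-22 (SD, n = 3 each), a difference of 2.79. AHNAK, a scaffold that binds S100A10 and annexin A2, was higher by 2.12, and the non-muscle myosin heavy chains MYH10 and MYH9, of which MYH9 binds S100A4, by 1.63 and 1.26. MDM2 was higher by 1.20, and SIAH1, a ubiquitin ligase, fell by 1.27. FPR1, a receptor for annexin A1, averaged 4.43 in fibroblasts and 4.19 to 4.30 in the ES lines, near background in all 4 groups, and AGER, a receptor for S100 proteins, differed by -0.17 and was not called.

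Between ES lines 1 partner was called through its brightest probe set: ITGB1 was lower in rPESC-2 than in ORMES-22, with a difference of -1.30 (SE 0.29, limma adjusted p = 0.026). The call was lost without replicate B or C of rPESC-2 or without replicate B or C of ORMES-22, with limma adjusted p-values of 0.109, 0.086, 0.104 and 0.086. It was also lost with only the 9 ES arrays (limma adjusted p = 0.082) and with only the 6 arrays of these lines (limma adjusted p = 0.154). Without ORMES-22 replicate A, MDM2 was called lower in ORMES-9 than in ORMES-22. A dimmer NRP1 probe set was called higher in rPESC-2 than in ORMES-22, by 1.13 (limma adjusted p = 0.0026).

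**Figure D5:**
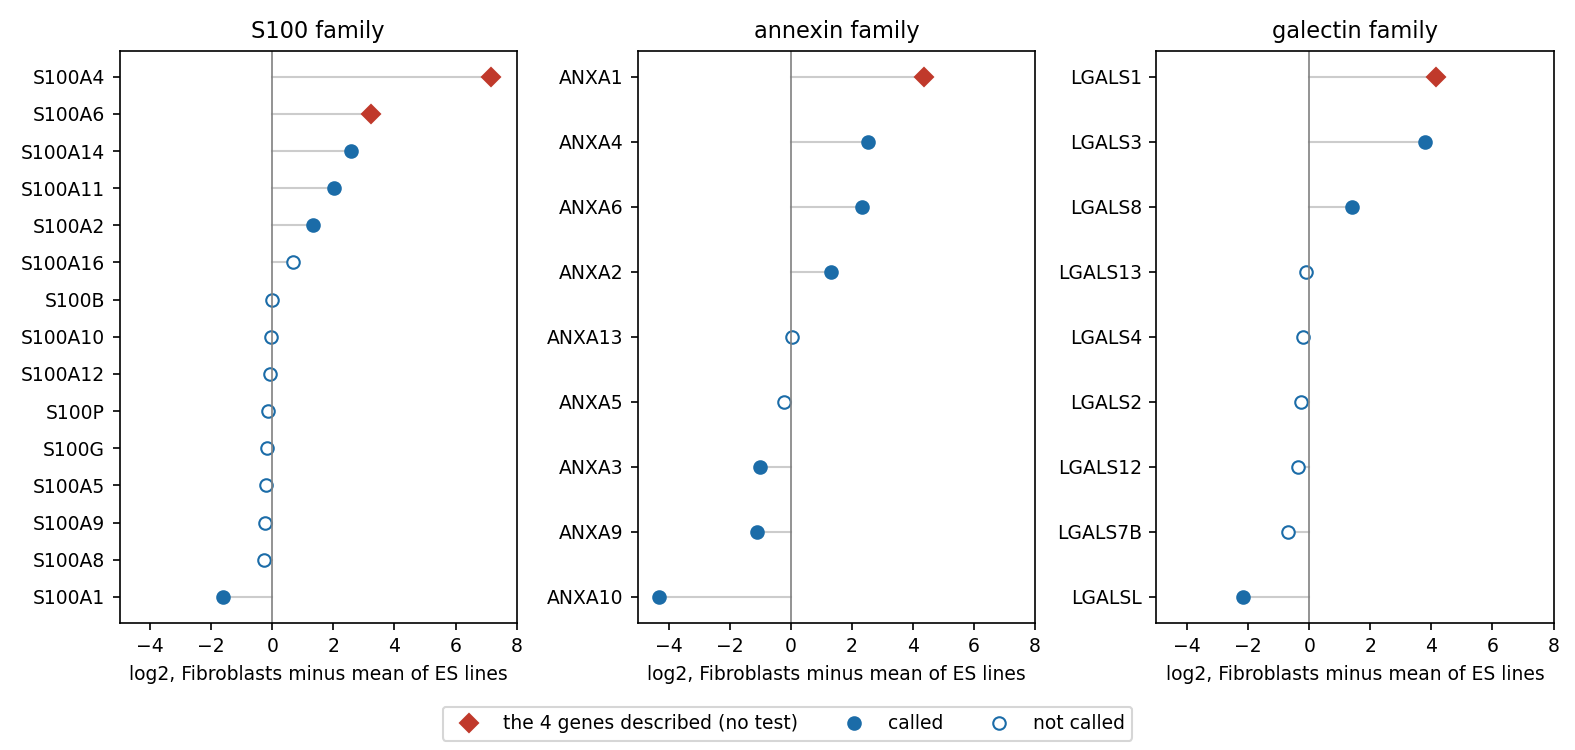
Log2 difference, fibroblasts minus the mean of the 3 ES lines, of each measured gene of the S100, annexin and galectin families, with the 4 chosen genes marked. The medians of the other family members are -0.08, -0.09 and -0.23, near the -0.15 of all genes, and include members near background in all groups.

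The genes most alike in pattern were found by Pearson correlation of log2 levels. Candidates were genes whose highest group mean reached background and whose SD was at least 0.5. Over 12 arrays, where the contrast of fibroblasts and ES cells dominates, S100A4 was most like SCARA3, GREM1 and LURAP1L (each 0.99), and 1294 of 3909 candidates passed 0.9. LGALS1 was most like SH3KBP1, TMEM106C and PRRX2 (0.99, 0.99 and 0.98), with 848 past 0.9. ANXA1 was most like VIM, the intermediate filament protein of mesenchymal cells, WDR11 and BDNF (0.98, 0.97 and 0.97), with 158 past 0.9. S100A6, whose brightest probe set alone of its 3 stayed high in ORMES-22, had 14 past 0.9 through that probe set, led by TIMP2, an inhibitor of matrix metalloproteinases, the transcription factor NFIX and the cadherin CDH11 (0.98, 0.98 and 0.96).

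Over the 9 ES arrays, with 829 candidates, TIMP2 led for both S100A4 (0.94) and S100A6 (0.97). LMO2 and KLF4 followed for S100A4 (0.93 and 0.89), and NFIX and ZFHX3 for S100A6 (0.96 and 0.93). ANXA1 was most like NPPB, a natriuretic peptide gene, TIMP3 and GIMAP7 (0.96, 0.95 and 0.94). LGALS1 was most like the secreted protease HTRA1, SUGCT and TNNC2 (0.88, 0.88 and 0.87), and 0 genes passed 0.9. NPPB itself ran the other way in fibroblasts, at a mean of 5.00, against 9.46 in ORMES-9, 9.69 in rPESC-2 and 10.57 in ORMES-22, so likeness among ES arrays did not extend to the fibroblasts. With rank correlation, between 0 and 2 of the 3 genes per set were the same.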

How the data were processed

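Each of 12 RNA samples was measured on its own Affymetrix rhesus array. The deposited table holds log2 values per probe set, which were made by the authors using RMA, per the submitters' processing notes. Its version is not given in the sources used here. The log2 scale was read from the values, with array medians of 5.01 to 5.10. RMA makes arrays alike in distribution and understates differences near background. Of 52865 features, 99 controls were left out. Genes were named from the platform annotation, and each gene was represented by its brightest probe set on average over the arrays. Genes with provisional or several symbols were not named.

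Group means were fitted to all 12 arrays with limma 3.58.1 in R 4.3.3, checked on simulated data, with 95% intervals of differences. The labels give no batch. The number of arrays, 3 per group, limits the precision.

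The members and the lists were chosen with earlier results of these data known. The genes named from the lists were those called between ES lines and up to 6 per family list with the largest difference between fibroblasts and ES lines. S100A5, S100A10, the defining markers by name, MYH9, MDM2, SIAH1, FPR1, AGER and the levels of NPPB were added after their values were seen. Alternatives changed the arrays used, normalization, filter, moderation, weights, probe set and replicate block. No sequences were used.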

Additional observations from a re-analysis of the deposited data

How the results depend on the processing

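Of 1033 values of results under other settings, 957 kept their direction and side of the threshold or stayed within the spread, 29 lost a call, 8 gained one, 28 moved and 11 turned sign; causes were not tested. LGALS1 in ORMES-9 against ORMES-22 stayed at -1.63 but lost its call with only the 6 arrays of these lines and with the 9 ES arrays. Leaving out each array gave -2.06 to -1.21 for it, and -1.32 to -0.47 in rPESC-2 against ORMES-22. S100A6 ranged over -3.01 to -2.12 in ORMES-9 against ORMES-22, -2.85 to -0.99 in rPESC-2 against ORMES-22 and -1.51 to 0.35 in ORMES-9 against rPESC-2. S100A4 in ORMES-9 against ORMES-22 ranged over -1.42 to -0.86. ANXA1 ranged over -2.99 to -1.60 in ORMES-9 against ORMES-22 and -1.39 to 0.013 in ORMES-9 against rPESC-2, its other probe sets over -0.59 to 0.38 and -0.15 to 0.096. The dim S100A6 probe set in ORMES-9 against ORMES-22 turned from -0.01 to 0.011 with array medians subtracted and 0.013 with quantile normalization, and ranged over -0.054 to 0.040 with arrays left out. With the mean of its probe sets, S100A6 was 4.52 higher in fibroblasts than in ES lines, against 3.24.

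Called probe sets in rPESC-2 against ORMES-22 were 656, and 332 with only those 6 arrays, 1006 with array weights, 2536 with no minimum fold, 207 at 3-fold and 460 to 1493 with arrays left out, the highest without ORMES-22 replicate A. For ORMES-9 against ORMES-22 the number was 831, and 3158, 288 and 717 to 1284 under the last 3 of these, again highest without that array. In ORMES-9 against rPESC-2 they were 650, and 2753 with no minimum fold, 209 at 3-fold and 542 to 714 with arrays left out.

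The replicate letters showed no pairing common to all groups: correlations of same-letter deviations over 18 pairs were -0.31 to 0.26, with 6 over 0.1. Those of different letters were -0.25 to 0.35. Between ORMES-9 and ORMES-22 the same-letter values were 0.19, -0.06 and 0.26, and those of different letters -0.25 to 0.07. With the letter as a replicate block, LGALS1 in ORMES-9 against ORMES-22 kept -1.63, S100A11 in ORMES-9 against rPESC-2 had a limma adjusted p of 0.051, and no call changed for the 9 probe sets of the 4 genes or for ANXA6, ANXA10 and ITGB1 between ES lines. The block was not run for other named genes. The planned promoter motif search was not run, nor the count of called genes with 1 probe set a gene as an alternative. Signal near background limits what 1 S100A6 and 1 ANXA1 probe set can show.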
